A study of Mus musculus with 6 samples.

Results

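The 35 genes described here are interferon-stimulated effectors and the signalling genes that control them: the receptor subunits Ifnar1 and Ifnar2, the transcription factors Stat2, Irf9, Irf1 and Irf7, and 29 genes that interferon induces, from the Ifit and Oas families to Bst2 and Cxcl10. They were chosen by symbol from a list of the pathway, with earlier results of these data known. Contrasts with all genes below therefore describe the set and are not an independent test of it. All 35 were found among the 50763 gene symbols of the count table. Poly(A) RNA of whole mouse testis at postnatal day 14 was sequenced in 3 wild-type samples (WT) and 3 samples labelled sKO, in which Rif1 was conditionally deleted in germ cells before meiosis. The promoter that drives the deletion, the deleted exons, the strain, and the number of animals behind each sample are not given in the labels. The p-values therefore cover only the variation from sample to sample, part of which may be technical. Where 3 values are listed for a group, they are those of its libraries 1, 2 and 3 in that order.

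Type I interferons bind the receptor made of IFNAR1 and IFNAR2, whose kinases JAK1 and TYK2 phosphorylate STAT proteins such as STAT2. Together with IRF9, STAT2 acts in a complex that binds the interferon-stimulated response element, a repeat of GAAA separated by a short spacer, in the promoters of its target genes. IRF1 and IRF7 extend the response and USP18 dampens it. In the testis, Sertoli cells, Leydig cells and macrophages are known to respond to interferon strongly and germ cells weakly.

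Estimates for this set were higher in the sKO testis for nearly every tested gene, by small amounts. Of the 35 members, 32 were expressed enough to be tested, and 31 of these had a higher estimate in sKO, against 55.3% of all 18860 genes tested. The median log2 fold change was 0.44 over the tested members and 0.03 over all tested genes. Most marker lists of testis cell types leaned the same way. Estimates were higher for 18 of 18 Sertoli cell, 13 of 14 macrophage, 9 of 9 spermatogonia and 6 of 6 peritubular myoid markers. So were 7 of 8 endothelial and 6 of 7 Leydig cell markers, but 0 of 14 spermatocyte markers. Their medians ran from 0.17 (spermatogonia) to 0.38 (peritubular myoid), apart from -1.27 for the spermatocyte markers. Only Ifit3 passed the threshold (edgeR's quasi-likelihood test, Benjamini-Hochberg adjusted p under 0.05) and it rose 2.501-fold. For comparison, 0.0318% of all tested genes were called higher and 1.27% lower, and 0 members were called lower. Without adjustment, 18 tested members were higher at a p under 0.05 and 0 were lower, where 5.06% of all tested genes were higher and 8.54% lower at that level. In 18 tested members the lowest sKO library lay above the highest WT library, as it did for 9.58% of all tested genes, and in 0 the order was the opposite, against 10.7%. DESeq2 called 5 members higher and 0 lower (Ifit3, Rtp4, Xaf1, Irf1 and Oas2), where it called 0.297% of all tested genes higher and 3.82% lower. Limma-voom called 0 members in either direction, with 0% of all tested genes higher and 0.0795% lower, and put 20 members higher at an unadjusted p under 0.05. An exact two-sided permutation test on 3 against 3 libraries cannot go below p = 0.1, the value reached by each of the 18 members whose groups did not overlap.

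The 3 members below the filter on low counts were Ifit3b, Oas3 and Ifi44, with 62, 45 and 60 counts over the 6 libraries. The filter asks for about 10 counts in 3 libraries. Of the tested members, Ifit1 reached that level in 1 WT library and in all 3 sKO libraries, so it passed through the group in which it was higher. Mx1 and Cxcl10 reached it in 1 WT and 2 sKO libraries each. With no filter all 35 members were fitted: 34 had a higher estimate, against 49.5% of all genes fitted, and 21 had an unadjusted p under 0.05 with a higher value, against 4%.

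**Figure D1:**
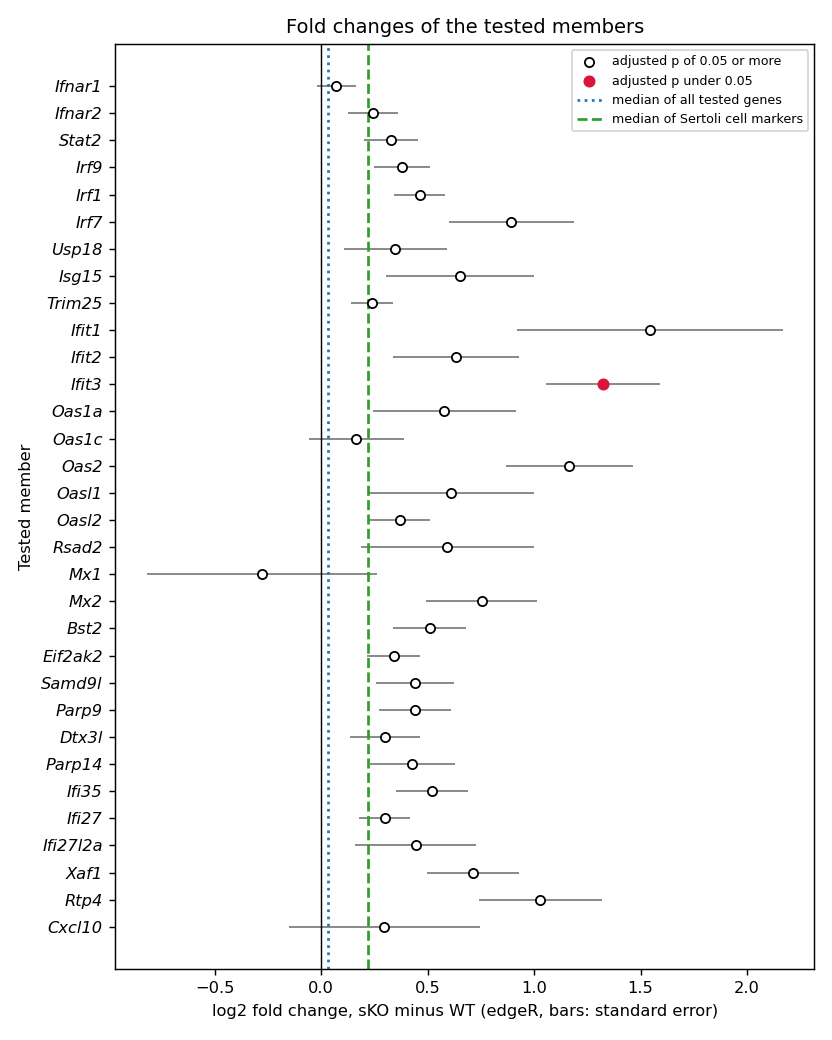
Log2 fold change of each tested member (sKO minus WT, edgeR; bars are standard errors), with the median of all tested genes (dotted) and of the Sertoli cell markers (dashed) as vertical lines. Points lie to the right of 0 for 31 of 32 members, and Ifit3 alone (filled) has an adjusted p under 0.05.

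Total counts ranged from 15941672 to 18296594 per library, so 3 counts, the limit that a count of 0 allows, equal 0.164 to 0.188 CPM (read counts scaled to library size). Rif1 itself stood at 96.5, 83.7 and 128.9 CPM in WT and at 42.0, 46.4 and 49.2 CPM in sKO. Its log2 level fell by 1.17 (SE 0.15, adjusted p = 0.0145 by edgeR). Without WT library 2, sKO library 1 or sKO library 2, the edgeR adjusted p of Rif1 was 0.137, 0.0618 and 0.1203, and in each of those fits edgeR called 0 genes of the whole table (431 to 1102 were higher and 1221 to 1662 lower at an unadjusted p under 0.05). Markers of the testis were present in every library. The 18 Sertoli cell markers summed to 7486 to 8395 CPM in WT and 8759 to 10390 CPM in sKO. The 14 spermatocyte markers summed to 1245 to 2266 CPM in WT and 648.3 to 1159 CPM in sKO. Of these, 5 were called lower in sKO, against 1.27% of all tested genes. In bulk tissue, fewer cells of a type and less RNA per cell cannot be told apart, and in values scaled to library size a lower share of one set of transcripts goes with a higher share of the others.

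The interferons themselves were close to undetected. Of 21 interferon genes, which encode the ligands of the pathway, 15 of the type I family and Ifnl2 had 0 counts in all 6 libraries. The other 5 were seen in at most 3 counts per library. Ifng, the type II interferon of T and NK cells, had 3 counts in sKO library 3 and 0 in the other libraries, which is the limit that a count of 0 allows. Ifnk had 1 count in WT library 1, sKO library 1 and sKO library 2. None of these genes could be tested at this depth.

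Receptor transcripts differed little. Ifnar1 held 147.1, 122.7 and 134.3 CPM in WT and 137.0, 141.6 and 146.0 CPM in sKO. These ranges overlapped, with the highest value in WT library 1, and the log2 fold change was 0.07 (SE 0.09, edgeR adjusted p = 0.786). For Ifnar2, WT libraries 1 to 3 held 24.28, 26.98 and 25.99 CPM and sKO libraries 1 to 3 held 31.4, 32.6 and 27.4 CPM. The sKO values lay above the WT values, the third only narrowly (edgeR log2 fold change 0.24, SE 0.12, adjusted p = 0.406). Scaling the libraries on Sertoli cell markers turned both estimates, to -0.18 and -0.01416. Downstream kinases differed as little, with log2 fold changes of 0.08 for Jak1 (SE 0.08, edgeR adjusted p = 0.7099) and 0.05 for Tyk2 (SE 0.10, edgeR adjusted p = 0.867). These estimates were -0.17 and -0.20 under the Sertoli scaling. The Jak1 groups did not overlap, at 257.1 to 275.0 CPM in WT and 277.5 to 283.0 CPM in sKO, and those of Tyk2 did.

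The transcription factors of the response had higher estimates, each at an unadjusted p under 0.05 and none past the adjusted threshold. Stat2 stood at 32.6, 34.9 and 38.1 CPM in WT and at 40.2, 40.5 and 51.7 CPM in sKO (edgeR log2 fold change 0.33, SE 0.13, adjusted p = 0.277). Irf9, its DNA-binding partner, had 34.2, 38.6 and 41.5 CPM in WT and 48.65, 42.5 and 57.5 CPM in sKO (edgeR log2 fold change 0.38, SE 0.13, adjusted p = 0.2155). In both, the groups did not overlap and sKO library 3 was the highest of the 6.

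Irf1 and Irf7 showed unlike patterns between libraries. Irf1, which both type I and type II interferon induce, held 21.4, 24.8 and 26.1 CPM in WT and 35.02, 33.79 and 30.84 CPM in sKO. Its 3 sKO libraries lay close together and above every WT library (edgeR log2 fold change 0.46, SE 0.12, adjusted p = 0.09625). Irf7, the factor that amplifies type I interferon production, held 5.66, 7.89 and 5.91 CPM in WT and 12.6, 6.84 and 16.7 CPM in sKO. Its libraries 1 and 3 of sKO were clearly above WT while sKO library 2 lay inside the WT range (edgeR log2 fold change 0.89, SE 0.29, adjusted p = 0.196). Over the alternatives the adjusted p of Irf1 ranged from 0.0429 to 0.589 and that of Irf7 from 0.000951 to 0.683, with the lowest of each in the fit without a filter on low counts.

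Irf1 carried, upstream of its start, a match to TTCNNNGAA, the palindromic element known as the gamma-activated site. It is shown because Irf1 was the transcription factor with the smallest p here. The 60 bases below are from RefSeq on GRCm38.p6, on the + strand at chr11:53769894-53769953, with the match in capitals.
Irf1: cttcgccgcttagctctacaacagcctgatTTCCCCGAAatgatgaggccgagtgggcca
This element occurred in 8 of the 26 members with a promoter in the RefSeq table (30.8%, by gene), counting 250 bases before to 50 after the start. It occurred in 8.3% of all promoters there, a share by promoter, where a gene can have several. A match is a description of the letters.

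Usp18 and Isg15 form the feedback arm. ISG15 is a ubiquitin-like modifier that interferon induces, USP18 removes it from proteins and blocks the receptor, and TRIM25 acts as one of its ligases. Isg15 was scarce, with 15, 18 and 16 counts in WT and 33, 17 and 28 counts in sKO, and sKO library 2 lay inside the WT range (edgeR log2 fold change 0.65, SE 0.35, adjusted p = 0.458). Usp18 held 2.92, 4.01 and 4.73 CPM in WT and 5.41, 3.996 and 5.39 CPM in sKO, again with sKO library 2 inside the WT range (edgeR log2 fold change 0.35, SE 0.24, adjusted p = 0.568). Trim25, at 66.7 ± 3.39 CPM (SD, n = 3) over the WT and 78.7 ± 6.22 CPM (SD, n = 3) over the sKO libraries, had non-overlapping groups and a log2 fold change of 0.24 (SE 0.10, edgeR adjusted p = 0.312), which was -0.00491 under the Sertoli scaling. The enzymes that charge and transfer ISG15, none of them members, had estimates of 0.75 for Uba7 (SE 0.25, edgeR adjusted p = 0.189) and 0.33 for Ube2l6 (SE 0.11, edgeR adjusted p = 0.214).

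The Ifit family, RNA-binding proteins that block translation of viral messages, held the one call. Ifit3 had 20, 20 and 24 counts in WT and 55, 45 and 63 counts in sKO. As CPM this was 1.12, 1.18 and 1.49 against 3.30, 2.72 and 3.46, so each sKO library held more than any WT library by a wide margin. Ifit3 rose by 1.32 log2 units (SE 0.27, adjusted p = 0.0440 by edgeR). That p was 0.117, 0.1598 and 0.0409 when WT library 1, 2 or 3 was left out and 0.138, 0.178 and 0.0588 when sKO library 1, 2 or 3 was, with log2 fold changes between 1.22 and 1.46. Over all its alternatives it ranged from 0.004 to 0.184, and the estimate from 1.08 to 1.46.

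Its neighbours on chromosome 19 had fewer reads or varied more. Ifit1 had 2, 5 and 14 counts in WT and 15, 13 and 36 counts in sKO (edgeR log2 fold change 1.54, SE 0.62, adjusted p = 0.302). The largest estimate of the set thus rested on few reads, and WT library 3 overlapped the sKO values. Without that library the log2 fold change was 2.57 (edgeR adjusted p = 0.0982), and when any other single library was left out it lay between 0.97 and 1.78, with adjusted p over all alternatives from 0.0544 to 0.597. Ifit2 held 3.196, 2.003 and 4.664 CPM in WT and 4.14, 5.45 and 5.66 CPM in sKO, with an overlap at WT library 3 (edgeR log2 fold change 0.63, SE 0.30, adjusted p = 0.386). Ifit3b, a near copy of Ifit3, had 3, 9 and 7 counts in WT and 16, 9 and 18 counts in sKO. How reads shared by Ifit3 and Ifit3b were assigned is not given in the labels, so the split between them is uncertain. For the same reason the direction of Ifit3b cannot be counted as separate from that of Ifit3.

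These genes also share promoter letters, shown because Ifit3, Ifit3b and Ifit1 had the largest ratios of sKO to WT in the family. Each had 2 matches to the core of the interferon-stimulated response element (GAAA, any 2 bases, GAAA), read on the reverse strand. Ifit2, the remaining member of the family, had no match to this core in its RefSeq promoter. Whether the matches bear on the fold changes was not tested. The 120-base stretches are RefSeq sequence of GRCm38.p6, all on the + strand, and capitals mark the matches.
Ifit3 (chr19:34583349-34583468): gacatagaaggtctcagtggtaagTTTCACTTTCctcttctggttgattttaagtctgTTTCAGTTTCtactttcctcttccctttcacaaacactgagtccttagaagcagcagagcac
Ifit3b (chr19:34607745-34607864): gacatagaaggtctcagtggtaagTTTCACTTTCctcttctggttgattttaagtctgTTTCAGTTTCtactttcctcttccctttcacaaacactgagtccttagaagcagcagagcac
Ifit1 (chr19:34640739-34640858): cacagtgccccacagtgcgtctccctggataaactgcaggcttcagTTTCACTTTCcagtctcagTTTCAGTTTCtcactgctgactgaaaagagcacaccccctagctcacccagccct
Ifit3 and Ifit3b were identical in all 120 bases printed, and over the 250 bases upstream 216 of 218 aligned bases matched. The pair of matches starts 34 bases apart in both, and 19 bases apart in Ifit1, with the same letters in each.

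Across the set, this core on either strand, overlapping matches allowed, was found in 12 of the 26 members with a RefSeq promoter (46.2%). Counted by promoter, it was in 12 of 29 member promoters (41.4%), against 3.44% of the 32851 promoters in the table. At least 2 matches were found in 7 members, counted by gene, and in 0.225% of all promoters, counted by promoter. Over the 10 tested members with a match, the median log2 fold change was 0.54 (0.17 to 1.54), and the 13 tested members with a promoter but no match had 0.44 (0.07 to 0.89). The ranges overlapped, and the difference was not tested. Stretches of 60 bases are given for 5 further members, to show how the element is arranged in single, paired and triple form.
Isg15 (chr4:156200859-156200918, - strand): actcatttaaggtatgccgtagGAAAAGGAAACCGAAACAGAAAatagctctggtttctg
Bst2 (chr8:71537563-71537622, - strand): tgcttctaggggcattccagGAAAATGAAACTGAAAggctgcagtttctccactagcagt
Oas1a (chr5:120907526-120907585, - strand): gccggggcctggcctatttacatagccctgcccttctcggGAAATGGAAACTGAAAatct
Rsad2 (chr12:26456533-26456592, - strand): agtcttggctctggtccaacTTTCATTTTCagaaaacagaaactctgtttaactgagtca
Stat2 (chr10:128270258-128270317, + strand): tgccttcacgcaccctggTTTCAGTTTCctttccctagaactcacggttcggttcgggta
Capitals mark the matches, each sequence runs 5′ to 3′ along its gene's strand, and all lie before the gene's start on GRCm38.p6. The overlapping copies in Isg15, Bst2 and Oas1a share a GAAA.

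Oligoadenylate synthetases, which make the signal that switches on RNase L, gave a graded picture. Oas2 held 28, 58 and 48 counts in WT and 86, 84 and 138 counts in sKO, or 1.57, 3.42 and 2.98 CPM against 5.17, 5.09 and 7.59 CPM. The groups were well apart, and the log2 fold change was 1.17 (SE 0.30, edgeR adjusted p = 0.0901, range over the alternatives 0.000798 to 0.2498). DESeq2, with an adjusted p of 0.0173, called it. Oasl2, an OAS-like protein, held 30.11, 31.99 and 34.39 CPM in WT and 39.0, 34.8 and 50.6 CPM in sKO (edgeR log2 fold change 0.37, SE 0.14, adjusted p = 0.274). Its groups did not overlap, though sKO library 2 lay just above WT library 3. Oas1a and Oasl1 had log2 fold changes of 0.58 (edgeR adjusted p = 0.495) and 0.61 (edgeR adjusted p = 0.535), and Oas1c, a paralog of Oas1a, had 0.17 (edgeR adjusted p = 0.791). Oas3 was nearly undetected, with 0 to 9 counts in WT and 4 to 20 in sKO.

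Among the other antiviral effectors, Mx2, Bst2, Eif2ak2 and Samd9l had non-overlapping groups and unadjusted p under 0.05. Bst2, the tetherin that holds budding virus at the cell surface, held 15.2, 24.45 and 21.5 CPM in WT and 32.1, 28.8 and 26.1 CPM in sKO (edgeR log2 fold change 0.51, SE 0.17, adjusted p = 0.206). Eif2ak2, the kinase PKR that senses double-stranded RNA, held 26.4, 23.0 and 28.5 CPM in WT and 33.9, 29.6 and 35.1 CPM in sKO (edgeR log2 fold change 0.34, SE 0.12, adjusted p = 0.247). Mx2, a dynamin-like GTPase gene, had 28, 38 and 27 counts in WT and 50, 59 and 49 counts in sKO (edgeR log2 fold change 0.75, SE 0.26, adjusted p = 0.219). Samd9l, a translation inhibitor, stood at 7.74 ± 1.22 CPM (SD, n = 3) over the WT and 10.5 ± 1.43 CPM (SD, n = 3) over the sKO libraries. Rsad2, which encodes viperin, had 11 to 17 counts in WT and 11 to 31 in sKO.

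Mx1 was the single tested member with a lower estimate. It had 10, 8 and 19 counts in WT and 4, 15 and 12 counts in sKO, and the log2 fold change of -0.28 was smaller than its SE of 0.54 (edgeR adjusted p = 0.866). RefSeq lists both Mx genes of the GRCm38 reference strain, C57BL/6J, as transcribed pseudogenes, and the labels do not name the strain of these mice.

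PARP9 and its partner, the ubiquitin ligase DTX3L, with the related PARP14, act in interferon signalling and on damaged chromatin, and their genes are neighbours on chromosome 16. Parp9 held 9.53, 9.31 and 10.9 CPM in WT and 14.4, 11.1 and 14.9 CPM in sKO (edgeR log2 fold change 0.44, SE 0.17, adjusted p = 0.267). Here sKO library 2 was barely above the highest WT value. Parp14 held 7.29, 7.36 and 11.3 CPM in WT and 12.6, 10.9 and 11.3 CPM in sKO, with WT library 3 inside the sKO range (edgeR log2 fold change 0.43, SE 0.20, adjusted p = 0.381). Dtx3l varied little within groups, at 6.59 ± 0.287 CPM (SD, n = 3) over the WT and 8.11 ± 0.433 CPM (SD, n = 3) over the sKO libraries (edgeR log2 fold change 0.30, SE 0.17, adjusted p = 0.473). The strand setting of the counting is not given, so reads where neighbouring genes overlap cannot be assigned to one of them.

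The remaining induced genes held some of the larger differences. Rtp4, a Golgi chaperone for receptors, had 58, 83 and 56 counts in WT and 145, 79 and 186 counts in sKO. Libraries 1 and 3 of sKO were far above WT and sKO library 2 fell inside the WT range (edgeR log2 fold change 1.03, SE 0.29, adjusted p = 0.122). Xaf1, a pro-apoptotic partner of XIAP, held 10.26, 13.02 and 13.62 CPM in WT and 16.0, 16.9 and 27.4 CPM in sKO (edgeR log2 fold change 0.71, SE 0.22, adjusted p = 0.158). For Xaf1 the groups were apart and sKO library 3 stood alone above the rest. DESeq2 called both, with adjusted p of 0.0295 for Rtp4 and 0.0492 for Xaf1, within ranges of 0.00119 to 0.475 and 0.00188 to 0.387 over their alternatives.

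Ifi35, a partner of NMI, was even among the sKO libraries, at 13.45 ± 2.52 CPM (SD, n = 3) over the WT and 19.3 ± 2.08 CPM (SD, n = 3) over the sKO libraries (edgeR log2 fold change 0.52, SE 0.17, adjusted p = 0.183). Ifi27, a mitochondrial and nuclear-envelope protein, held 89.3, 111.2 and 103.6 CPM in WT and 140.1, 126.7 and 107.4 CPM in sKO (edgeR log2 fold change 0.30, SE 0.12, adjusted p = 0.295). In Ifi27 the order was the reverse of Xaf1, with sKO library 3 inside the WT range. Its relative Ifi27l2a had an estimate of 0.44 (SE 0.28, edgeR adjusted p = 0.536), and Ifi44 had 6 to 8 counts in WT and 7 to 16 in sKO. Cxcl10, the chemokine that draws activated T cells and a sensitive target of interferon in many tissues, was almost silent, with 11, 6 and 8 counts in WT and 7, 13 and 11 counts in sKO (edgeR log2 fold change 0.30, SE 0.45, adjusted p = 0.824).

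**Figure D2:**
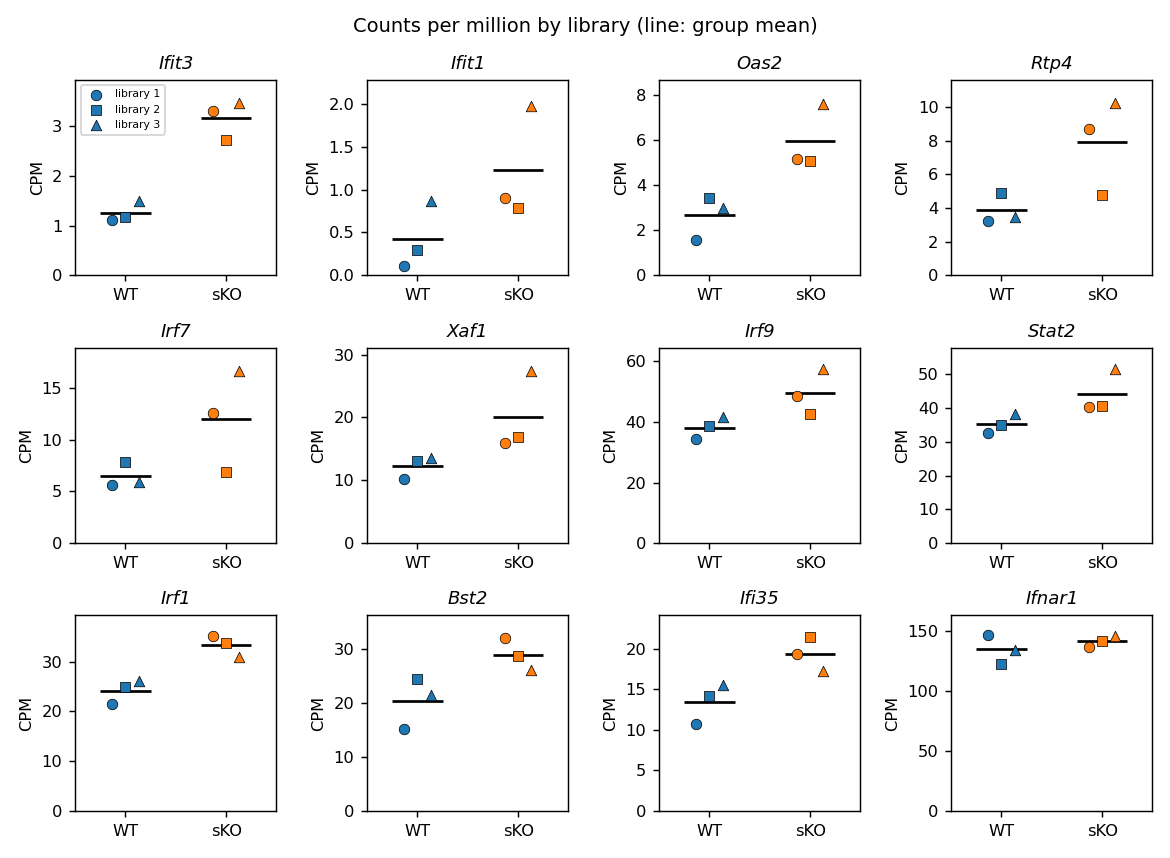
CPM of 12 members in each library (y axis from 0; circle, square and triangle are libraries 1, 2 and 3; the line is the group mean). Ifit3 and Oas2 separate the groups in every library, Rtp4 and Irf7 are high in sKO libraries 1 and 3 and not in 2, and Ifnar1 overlaps between groups.

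Levels between genes were compared as CPM per kilobase of exon, using exon lengths of GENCODE M21 (GRCm38). In WT, Ifi27 was highest at 69.1 CPM per kilobase, followed by Ifnar1 at 22.7 and Bst2 at 22.6, which were alike, and Trim25 at 11.6. The lowest were Oas3 at 0.0414, Ifi44 at 0.071 and Ifit1 at 0.1603. The transcription factors Irf9, Irf1, Stat2 and Irf7 stood at 7.08, 6.06, 5.94 and 1.72, Usp18 at 1.39, and the induced genes Ifi35 and Ifi27l2a at 7.79 and 6.64. The genes known as the most inducible (Ifit1, Rsad2, Mx1, Isg15, Cxcl10) lay between 0.1603 and 1.28. Ifit3 stood at 0.724 CPM per kilobase in WT.

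The sKO libraries differed from each other. Among the 32 tested members, sKO library 3 was the highest of all 6 libraries in 17 and sKO library 1 in 9, where these libraries were highest for 14.4% and 20.5% of all tested genes. Another 4 members were highest in sKO library 2 (16.6% of all tested genes), 1 in WT library 1 (25.1%), 1 in WT library 3 (8.61%) and 0 in WT library 2 (14.9%). The lowest of the 3 sKO libraries was library 2 in 18 members (56.2%), against 29.3% of all tested genes. Of the tested members, 28, 21 and 28 stood above every WT library in sKO, or 87.5%, 65.6% and 87.5%, where 33.1%, 31.2% and 24.7% of all tested genes did. On the WT side, library 1 was the lowest of the 6 in 23 members, against 25.2% of all tested genes.

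**Figure D3:**
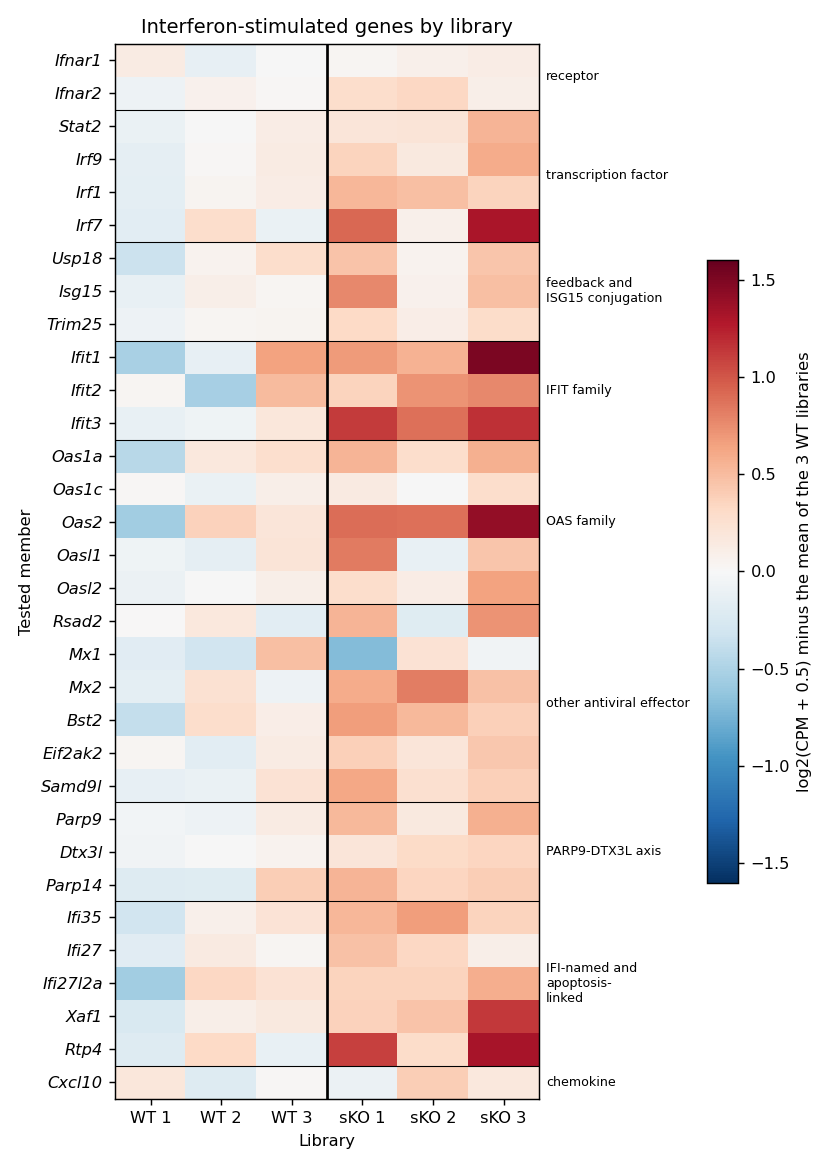
Each tested member (rows, grouped by role) in each library (columns), as log2(CPM + 0.5) minus the mean of the 3 WT libraries, red for higher and blue for lower. The sKO columns are mostly red, with sKO library 2 paler than libraries 1 and 3, and Ifit1, Oas2, Rtp4, Irf7, Ifit3 and Xaf1 darkest in sKO library 3.

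The order varied among members: library 1 was the lowest of the sKO libraries in 8 members, among them Stat2 and Xaf1, and library 3 in 6. The latter were Irf1, Bst2, Ifi27, Ifi35, Mx2 and Ifnar2, whereas Irf9, Stat2, Oasl2, Xaf1, Irf7, Rtp4 and Oas2 were highest in library 3. The fit without WT library 1 held 34 members, the others 32. Without sKO library 3, 8 members were higher at an unadjusted p under 0.05, against 5.3% of all genes in that fit. Leaving out WT library 1 gave 11 members, against 4.24%, and leaving out both libraries numbered 1 gave 6, against 2.67%. The median log2 fold change of the tested members was 0.37, 0.37 and 0.31 in these fits.

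Markers of other cell types moved between the libraries as well. The median deviation of the members from the WT mean (log2) was -0.14, 0.03 and 0.12 in WT and 0.49, 0.29 and 0.46 in sKO. For the 14 macrophage markers it was -0.36, 0.19 and 0.17 in WT and 0.54, 0.48 and -0.04 in sKO. Of the 14 estimates 13 were above 0, against 55.3% of all tested genes, and 0 were called. Their summed level was 129.4 to 186.5 CPM in WT and 230.0, 223.7 and 169.2 CPM in sKO. In the third sKO library this sum lay inside the WT range. The part of macrophage transcripts in the members' values was not tested in any library. Endothelial markers behaved alike, at 0.37, 0.24 and -0.03 in sKO, and so did peritubular myoid markers, at 0.69, 0.23 and -0.02. The 7 Leydig cell markers lay at 0.59, 0.39 and 0.19 in sKO, and their sum was 346.6, 442.9 and 488.2 CPM in WT and 632.5, 519.2 and 583.6 CPM in sKO, above WT in every sKO library. Of these markers 6 had a higher estimate, 2 of them at an unadjusted p under 0.05 by edgeR, against 55.3% and 5.06% of all tested genes. None was called. Cyp17a1 and Star, steroidogenic genes named after their values were seen, had log2 fold changes of 1.83 (SE 0.56) and 1.27 (SE 0.46). In sKO library 3 they held 75.2 and 134.4 CPM of the sum, against at most 26.2 and 36.7 CPM in WT. In sKO library 2, Cyp17a1 lay inside the WT range at 25.85 CPM. Star was the 1 marker of the 7 whose groups did not overlap. Insl3 had an estimate of -0.01, and sKO library 3 was its lowest library at 7.75 CPM. The part of Leydig cell transcripts in the members' values was not tested. Lymphocyte and plasmacytoid dendritic cell markers were at 7.81 to 10.25 CPM in sum in every library, and 12 of 15 were too low to test. Of the 3 tested, Cd3g and Cd4 had higher estimates (0.64 and 0.42) and Cd3e a lower one (-0.29). Cd3e, at 2.88 to 6.01 CPM, was the largest part of the sum, so the sum says little about the other markers.

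Sertoli cell markers, with a median log2 difference of 0.22, lay at 0.22, 0.28 and 0.12 in sKO, relative to the WT mean. Of the 18, 8 were higher at an unadjusted p under 0.05 by edgeR, against 5.06% of all tested genes. In 8 the sKO libraries lay above all WT libraries, against 9.58%, and 0 were called. The 9 spermatogonia markers lay at 0.14, 0.175 and 0.18 in sKO. Spermatocyte markers lay at 0.62, -0.14 and -0.33 in WT and at -1.29, -1.08 and -0.93 in sKO. The WT library with the most spermatocyte transcript was therefore the one in which most members were lowest. Scaling the libraries on the Sertoli cell markers moved the median of all tested genes from 0.03 to -0.22. The median of the members became 0.21, which left 0.43 above the median of all genes, against 0.41 with the standard scaling. A change of scaling moves the estimates of all genes by nearly the same amount. This gap could therefore hardly change, and its size is no check of the set. Under that scaling 27 of 32 members had an estimate above 0, against 16.1% of all genes, 3 were higher at an unadjusted p under 0.05, against 0.387%, and 0 were called. The part of the spermatocyte difference in the members' values was not tested.

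Epididymis markers summed to 228.8 CPM in sKO library 1 and to 2.25 to 27.2 CPM elsewhere. Without that library the tested members had a median of 0.40, 32 of 32 estimates were above 0, against 49.6% of all genes, and 13 had an unadjusted p under 0.05 in that direction, against 2.23%.

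**Figure D4:**
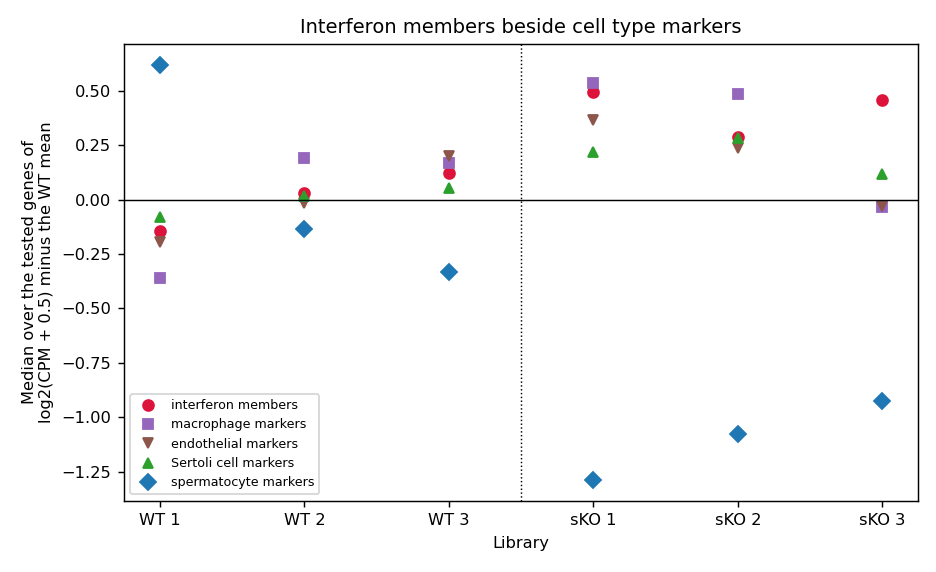
Median over the tested genes of log2(CPM + 0.5) minus the WT mean, for the interferon members and 4 marker lists in each of the 6 libraries. In sKO libraries 1, 2 and 3 the members stand at 0.49, 0.29 and 0.46 and the macrophage markers at 0.54, 0.48 and -0.04. Endothelial markers stand at 0.37, 0.24 and -0.03 there, Sertoli cell markers at 0.22, 0.28 and 0.12, and spermatocyte markers at -1.29, -1.08 and -0.93. Leydig cell and peritubular myoid markers, which are not drawn, lay at 0.59, 0.39 and 0.19 and at 0.69, 0.23 and -0.02.

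The wider pathway gave the same kind of picture. Of 63 other interferon-stimulated genes 51 were tested, and 47 had a higher estimate, against 55.3% of all tested genes. At an unadjusted p under 0.05 by edgeR, 22 were higher and 2 lower, against 5.06% and 8.54%. In this list 1 gene was called higher, against 0.0318%, and the median log2 fold change was 0.38. In 19 of the 51 the sKO libraries lay above all WT libraries and in 2 below, against 9.58% and 10.7% of all tested genes. The called gene was Iigp1, an immunity-related GTPase, at 2.75, 2.89 and 3.30 CPM in WT and 7.33, 4.78 and 9.40 CPM in sKO (edgeR log2 fold change 1.27, SE 0.26, adjusted p = 0.0475). Its adjusted p was between 0.0599 and 0.172 when any 1 library was left out. B2m, the light chain of MHC class I, and Trim30d had the next smallest p, with log2 fold changes of 0.77 (SE 0.17) and 1.14 (SE 0.25) and an edgeR adjusted p of 0.0548 for each.

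Of 9 tested receptors, kinases and STATs, 8 had a higher estimate, against 55.3% of all tested genes. At an unadjusted p under 0.05 by edgeR, 4 were higher and 0 lower, against 5.06% and 8.54%. In this list 0 were called, against 0.0318% higher and 1.27% lower, and the median was 0.09. Ifnlr1, the receptor of type III interferon, held 4.09, 3.59 and 4.23 CPM in WT and 6.49, 6.24 and 6.87 CPM in sKO (edgeR log2 fold change 0.72, SE 0.19, adjusted p = 0.0962). Ifngr2, a subunit of the type II receptor, had an estimate of 0.34 (SE 0.09, edgeR adjusted p = 0.112). Of 16 tested regulators, 11 had a higher estimate, against the same 55.3%. Another count, at an unadjusted p under 0.05 by edgeR, was 5 higher and 1 lower, against 5.06% and 8.54%, and 0 were called. Irf2bp2, a corepressor of IRF2, had the smallest p, with a log2 fold change of 0.37 (SE 0.09, edgeR adjusted p = 0.0802).

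The 3 genes of the wider pathway that were lower at an unadjusted p under 0.05 are named after their values were seen. Irf3, the factor that sensors activate to start interferon production, stood at 87.8 ± 8.22 CPM (SD, n = 3) over the WT and 71.6 ± 4.64 CPM (SD, n = 3) over the sKO libraries (log2 fold change -0.30, edgeR adjusted p = 0.219). Parp12 stood at 166.7 ± 19.7 and 126.1 ± 16.6 CPM (log2 fold change -0.40, edgeR adjusted p = 0.1475) and Tdrd7, also a germ granule protein, at 85.2 ± 6.67 and 67.1 ± 6.03 CPM (SD, n = 3 each; log2 fold change -0.34, edgeR adjusted p = 0.156). In all of these the sKO libraries lay below every WT library. Socs1, a feedback inhibitor of JAK kinases, had 4.34 ± 1.20 CPM (SD, n = 3) over the WT and 4.32 ± 0.812 CPM (SD, n = 3) over the sKO libraries.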

How the data were processed

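The authors deposited raw read counts per gene symbol. Per the submitters' processing notes, Trim Galore, HISAT2, featureCounts and build mm39 were used. Not given in the sources used here were versions, annotation, strand setting and the treatment of multiply mapped reads. Columns named con and scKO were read as WT and sKO and matched by number to the sample titles. No 2 libraries of a group were duplicates (chi-square over degrees of freedom 4.81 to 22.7, all above counting error).

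The test was run in edgeR 4.0.16 under R 4.3.3 (filterByExpr, TMM, robust quasi-likelihood F test, no covariates, Benjamini-Hochberg adjustment over 18860 genes). CPM used TMM-scaled library sizes. The SE was derived from the F statistic. Alternatives were DESeq2 1.42.0, limma-voom 3.58.1, other scalings and filters, a replicate block, and leaving libraries out. The code was tested on simulated data. Limits from a count of 0 cover counting error only, since the labels mention no molecular identifiers and reads may be copies of one molecule.

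The members, gene lists and tests were chosen with earlier results of these data known. Named in full were the called members, the receptors and transcription factors, Usp18 and Isg15, and per remaining role the 2 members with the smallest p and the most abundant one. For the wider pathway these were the called genes, Jak1, Tyk2 and the 3 smallest p of each list, of which 1 gene is not reported here. Other genes given were chosen after their values were seen. Promoters came from RefSeq on GRCm38.p6, which held 26 of the 35 members. This build differs from that of the counts.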

Additional observations from a re-analysis of the deposited data

How the results depend on the processing

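All genes called lower numbered 240 and higher 6, members called higher 1 and lower 0, members higher at an unadjusted p under 0.05 18, other pathway genes called higher 1, and the members' median was 0.44. In that order, without members called lower, which stayed at 0 in every alternative, DESeq2 gave 721, 56 and 5 calls, and 6 pathway genes. Limma-voom gave 15, 0 and 0, and 0 pathway genes. The fit without a filter gave 992, 154 and 7, and 11 pathway genes, and the stricter filter 0 pathway genes. Scaling on Sertoli cell markers gave 535, 1 and 0, with 3 members at an unadjusted p under 0.05, 0 pathway genes and a median of 0.21. Without both libraries numbered 1 there were 155 lower genes, 0 members and 0 pathway genes called, 6 members at an unadjusted p under 0.05 and a median of 0.31. Leaving out 1 library at a time gave 0 to 624 lower and 0 to 31 higher genes, 0 to 1 members called, 8 to 20 at an unadjusted p under 0.05, 0 to 1 pathway genes, medians of 0.37 to 0.55 and Rif1 estimates of -1.30 to -0.97. Of the genes given with full values, those whose estimate turned, all under the Sertoli scaling, were Ifnar1 (-0.18), Ifnar2 (-0.01416), Trim25 (-0.00491), Jak1 (-0.17) and Tyk2 (-0.20). Under limma-voom, where 0 members were called, 20 were higher at an unadjusted p under 0.05. Beyond the genes and libraries left out, the cause of these changes was not tested.

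The labels number the libraries 1 to 3 in each group without saying that a number marks a litter or batch. Same-numbered libraries deviated from their group means with correlations of -0.342, 0.12 and -0.276, so the numbers were not taken as pairs. With the replicate block, 21 genes were called lower, 0 higher, 0 members and 0 pathway genes, and the adjusted p of Ifit3 was 0.154. Members with few reads, such as Ifit1, Ifit3b, Oas3, Ifi44, Mx1 and Cxcl10, are limited by depth.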
